A study of Mus musculus with 4 samples.

Results

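Ccl2, Ccl7, Ccl8 and Ccl12, the CC chemokines of the monocyte chemoattractant family, and the receptor Ccr2 were followed in mouse heart grafts. Monocytes answer Ccl2, Ccl7 and Ccl12 through Ccr2. Every cell class profiled by droplet single-cell RNA sequencing was covered. The members were taken by gene symbol, 5 of the 30905 genes in the deposited matrix, and all 5 were present. The study transplanted hearts into the abdomen of male, young adult C57BL/6J recipients, per the study's methods. 2 grafts were allogeneic, from Balb/C donors, and 2 were syngeneic, from C57BL/6J donors. All 4 were collected on day 5 after transplantation, with no treatment named and no cell sort, so donor cells and recipient leukocytes were measured together. The matrix pools 4 libraries that are told apart by the barcode suffix alone (1 to 4), and nothing used here ties a suffix to a graft. The libraries are therefore given side by side as unassigned, allogeneic and syngeneic grafts were not compared, and no test or p-value was possible. A level is the number of UMIs (unique molecular identifiers, each a tag of 1 captured transcript) per 1000000 UMIs of the group (CPM), without mitochondrial genes, and intervals are exact 95% intervals of counting error only.

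CC chemokines are small secreted proteins that bind to the matrix around the cell that makes them and draw leukocytes up the gradient. Ccr2 is a G protein-coupled receptor of classical, Ly6c2-rich monocytes: it lets them leave the bone marrow and enter inflamed tissue, the injured or transplanted heart among them, and it is generally lost as they mature into tissue macrophages. Ccl2, Ccl7 and Ccl12 are Ccr2 ligands, while mouse Ccl8 is best known as a ligand of Ccr8. Fibroblasts, pericytes, endothelial cells and macrophages can all be induced to make the ligands by inflammatory cytokines and interferons.

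In the GENCODE M21 annotation of GRCm38, the 4 ligand genes lie on the plus strand of chromosome 11 within 81.2 kb, each with 3 exons in its principal transcript. Ccl2 (ENSMUSG00000035385) covers chr11:82035571-82037453 and Ccl7 (ENSMUSG00000035373) starts 8.26 kb after its end, at chr11:82045712-82047525. Ccl12 (ENSMUSG00000035352, chr11:82101845-82103400) and Ccl8 (ENSMUSG00000009185, chr11:82115185-82116799) form the far pair, with 11.8 kb between them. Ccr2 (ENSMUSG00000049103) lies on chromosome 9, at chr9:124101950-124113557 on the plus strand. Promoter windows of 250 bases before to 50 bases after the start were matched in the RefSeq table of GRCm38.p6 for 3 of the 5 members, Ccl8, Ccl12 and Ccr2. The windows of Ccl8 and Ccl12 are shown because these neighbours had unlike levels in the libraries. They are chr11:82114935-82115234 and chr11:82101595-82101894, both on the plus strand, and the capitals mark motif matches.
Ccl8: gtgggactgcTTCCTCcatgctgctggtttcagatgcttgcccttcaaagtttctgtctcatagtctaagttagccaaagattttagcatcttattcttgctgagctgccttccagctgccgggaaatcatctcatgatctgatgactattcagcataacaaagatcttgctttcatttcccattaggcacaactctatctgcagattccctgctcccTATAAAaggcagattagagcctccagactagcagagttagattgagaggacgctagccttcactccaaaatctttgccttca
Ccl12: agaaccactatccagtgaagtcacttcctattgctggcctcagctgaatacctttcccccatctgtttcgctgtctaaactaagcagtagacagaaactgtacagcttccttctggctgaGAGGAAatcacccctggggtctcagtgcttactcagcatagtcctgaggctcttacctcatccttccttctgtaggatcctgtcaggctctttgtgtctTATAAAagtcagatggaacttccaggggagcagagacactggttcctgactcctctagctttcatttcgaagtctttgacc
6 motifs were searched on both strands: the TATA box TATAAA, AP-1 as TGANTCA, the STAT site TTCNNNGAA, the interferon-stimulated response element (ISRE), the PU.1 core GAGGAA and the NF-kB consensus. Ccl8 and Ccl12 both held a TATAAA, 32 and 31 bases before the start, a motif found in 13.6% of the 32851 promoters of the table. Both also held 1 PU.1 core, 240 bases before the start in Ccl8, on the minus strand, and 130 bases before it in Ccl12. That core occurred in 28.3% of promoters. The other motifs, found in 7.81% (AP-1), 8.30% (STAT), 3.44% (ISRE) and 4.51% (NF-kB) of promoters, had no match in either window, and no motif of the 6 matched in the Ccr2 window. Aligned end to end, the Ccl8 and Ccl12 windows shared 175 of 281 aligned bases (62.3%), against 55.3% for Ccl8 with Ccr2 and 54.7% for Ccl12 with Ccr2.

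Of 53824 deposited barcodes, 42395 cells were kept, between 9358 and 12496 per library, with median depths from 4573.5 to 11908 UMIs per cell. They formed 29 clusters, of which 23 were named as 11 classes from fixed marker lists and 6 (5383 cells) stayed unnamed. Among the 53516 barcode sequences, 308 occurred in more than 1 library. Libraries 2 and 4 stood apart in their make-up. Library 2 held 2731 granulocyte-like cells (21.9%) and 16 fibroblast-like cells, and its stromal cells fell mostly into an unnamed cluster, cluster 18. In library 4, 770 cells of cluster 19 carried 5 granulocyte markers but stayed unnamed, being shallow for their library with no marker among the leading genes. In library 4, 54.8% of cells were macrophage-like and 5.93% endothelial-like, where the other libraries held 5.60 to 12.5% and 42.0 to 47.8%. Levels of the 5 genes by class are therefore given by library.

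Macrophage-like and fibroblast-like cells held most of the ligand transcripts, and the split between them differed by ligand. Over all kept cells, macrophage-like cells (20.3% of cells, 30.02% of UMIs) held 38.5% of Ccl2, 33.01% of Ccl7, 91.8% of Ccl8 and 95.5% of Ccl12 UMIs. Fibroblast-like cells (11.2% of cells) held 32.5% of Ccl2 and 38.8% of Ccl7, but 4.48% of Ccl8. In the pool, the pattern splits the ligands along their order on the chromosome: the Ccl2 and Ccl7 pair was shared between stroma and macrophages, and the Ccl12 and Ccl8 pair lay almost wholly in macrophages. By library, macrophage-like cells held 73.7, 2.85, 90.1 and 93.3% of Ccl8 UMIs in libraries 1 to 4, so the split did not hold for Ccl8 in library 2. Pooled Ccr2 UMIs came to 89.8% from macrophage-like and to 5.91% from T/NK-like cells.

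**Figure D1:**
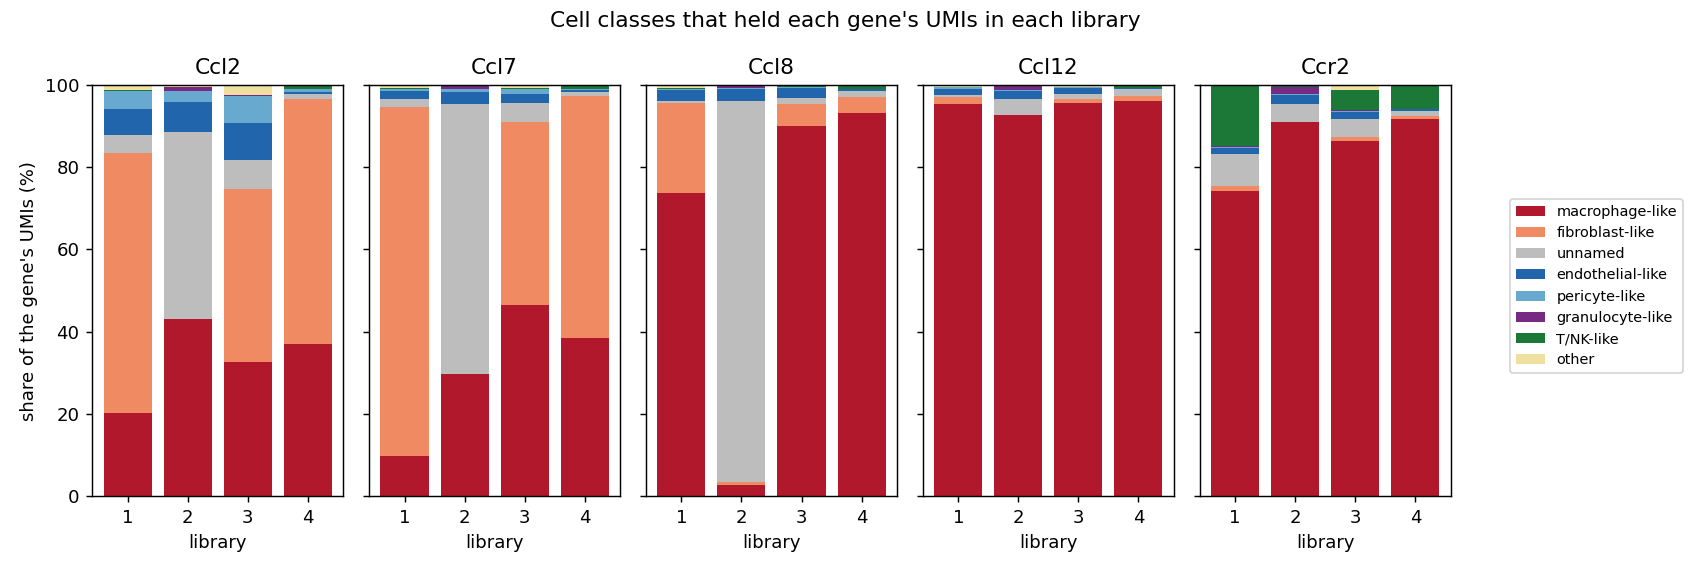
Share of each gene's UMIs (%) held by each cell class, with a bar for each library. Fibroblast-like cells of libraries 1, 3 and 4 and unnamed cells of library 2 held much of Ccl2 and Ccl7, whereas Ccl12 and Ccr2 came mostly from macrophage-like cells in all 4 libraries and Ccl8 in libraries 1, 3 and 4.

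Ccl2, the best known attractant of classical monocytes, was found at widely different levels in the libraries. In macrophage-like cells it stood at 503, 4435, 502 and 654 CPM in libraries 1, 2, 3 and 4. In fibroblast-like cells it stood at 376, 268 and 6428 in libraries 1, 3 and 4. Library 2 was thus high in macrophages and library 4 in fibroblasts, by far more than counting error: the interval of the 4435 ran from 4401 to 4468, and that of the 6428 from 6387 to 6469. The order of the classes changed with the library. Macrophage-like cells exceeded fibroblast-like cells 1.34-fold in library 1 and 1.88-fold in library 3, but in library 4 fibroblast-like cells were higher 9.82-fold. The pooled order (fibroblast-like 1409.5, macrophage-like 1071) therefore does not hold within libraries 1 and 3.

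3 clusters, each mostly of 1 library, held 61.7% of all Ccl2 UMIs in 5.70% of the cells. Cluster 22, the fibroblast-like cells of library 4, was led by Timp1, an inhibitor of matrix metalloproteinases, and Cxcl14, and held 26.8%. Cluster 18 of library 2 was led by Prg4, Cxcl5 and Ptx3, carried only 2 of the fibroblast markers (Dcn and Pdgfra) and so stayed unnamed, and held 17.6%. Cluster 14, macrophage-like cells of which 857 of 1079 were from library 2, was led by Arg1 and Ccl24, genes of alternatively activated macrophages, and held 17.3%. In the cells of cluster 18 the level of Ccl2 was 3060.2 and that of Ccl7 1774. The highest count in a single cell was 1533 Ccl2 UMIs, in library 4, in a cell that clustered with the fibroblasts but whose subcluster was led by lymphocyte genes (subcluster 9).

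Ccl7, which draws monocytes through Ccr2 and other leukocytes through Ccr1 and Ccr3, followed Ccl2 only in part in where it was found. Its macrophage levels were 245, 1196, 397 and 318 CPM in libraries 1 to 4. Its fibroblast levels were 515, 157 and 2958 in libraries 1, 3 and 4. As with Ccl2, the highest macrophage level was that of library 2 and the highest fibroblast level that of library 4. Within library 1 Ccl7 and Ccl2 parted. Fibroblast-like cells exceeded macrophage-like cells 2.10-fold in Ccl7, whereas macrophage-like cells were 1.34-fold higher in Ccl2. Library 1 differed from the others in balance: its fibroblast-like cells had 0.730 Ccl2 UMIs for each Ccl7 UMI, against 1.71 in library 3 and 2.17 in library 4. This came with cluster 7, fibroblast-like cells led by Gsn and Clec3b, which held 81.3% of the Ccl7 UMIs of library 1. In cluster 7 the same ratio was 0.671 in library 1 (1784 cells) and 0.923 in library 3 (450 cells). More Ccl7 than Ccl2 in this cluster was thus not particular to library 1. In fibroblast subcluster 1, led by Gsta3 and Inmt and 870 of its 904 cells from library 1, Ccl7 reached 963 and Ccl2 641 in library 1.

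The fibroblast-like cells of library 4 were subclustered, and transcripts of other cells were looked for in each subcluster. Subcluster 7 (306 cells of library 4, led by Hp, Lcn2 and Ifi202b) had a Ccl2 level of 6967 and a Ccl7 level of 3258. Subcluster 9 (172 cells, led by the lymphocyte genes Gzma and Nkg7, with a median of 1314 UMIs per cell) had 7109 and 3272, but from few cells. The top 10% of its cells held 87.3% of its Ccl2 UMIs, against 31.2% in subcluster 7, and a single cell held 1533 of 5836, so that the mean over cells was 4080.5 CPM against 7059. The macrophage genes told the subclusters apart: Ccl12 stood at 9.16 in subcluster 7 and 69.4 in subcluster 9, and at 230 in subcluster 12, whose 49 cells were led by Fcer1g, Ctss and Lyz2. Macrophage markers took 0.0627% of the UMIs of fibroblast-like cells in library 4 and 1.08% of those of its macrophage-like cells.

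Against endothelial-like cells, which line the vessels that monocytes cross, Ccl2 and Ccl7 were higher in fibroblast-like cells in each library that held both classes. Ccl2 stood at 42.8, 304, 61.2 and 121 CPM in endothelial-like cells of libraries 1 to 4. The fold from endothelial-like to fibroblast-like cells was 8.76 in library 1, 4.37 in library 3 and 53.1 in library 4. For Ccl7 the endothelial levels were 12.6, 46.2, 7.48 and 34.7, and the folds were 41.0, 20.99 and 85.3. The endothelial Ccl7 levels were 1.19, 1.10, 0.753 and 1.23 times those of the T/NK-like cells of the same library, with intervals that held 1 in libraries 1 to 3. In libraries 1 and 3 the T/NK-like levels rest on 15 and 8 Ccl7 UMIs (intervals of the ratio 0.710 to 2.15 and 0.377 to 1.76). In library 2, 158 of the 164 T/NK-like cells were in a subcluster led by endothelial and granulocyte genes. Its ratio is therefore no measure of free RNA. Endothelial Ccl7 was thus not told apart from free RNA in libraries 1 and 3, and lay little above it in library 4. The Ccl7 folds are limited by this. The endothelial Ccl2 level of library 4 (121) was 2.36 times (95% interval 2.17 to 2.57) that of its T/NK-like cells (51.3). It was less far above that of its B-like cells (107), so the Ccl2 fold of library 4 is also taken against a level not far from background. In libraries 1 and 3 the endothelial Ccl2 level was 4.06 (95% interval 2.45 to 7.28) and 2.74 times (1.73 to 4.63) that of T/NK-like cells. Pooled over libraries, the log2 ratio was 3.27 (95% interval 3.25 to 3.30) for Ccl2 and 5.01 (4.96 to 5.07) for Ccl7. Without library 4 the log2 ratios were 1.08 and 3.71, the fibroblast level of Ccl2 going from 1409.5 to 313 and the endothelial level from 146 to 148. Without library 2 they were 4.52 and 5.97, and other cell filters, clusterings and averages put Ccl2 between 2.06 and 3.64 and Ccl7 between 3.21 and 5.67. At least 2-fold higher levels were found for 3 of the 5 members (Ccl2, Ccl7 and Ccl8), against 15.5% of the 7351 genes that reached 20 CPM in either class. Ccl12 and Ccr2 stayed under that floor in both classes. No member was 2-fold lower, against 17.4% of genes.

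Pericytes, the contractile cells around capillaries, carried more Ccl2 than endothelial cells. Pericyte-like cells had 154, 704 and 245 CPM in libraries 1, 2 and 3, which was 3.60-, 2.32- and 4.01-fold the endothelial level of the same library. Smooth muscle-like cells had 20.4, 270.4 and 106. Among libraries 1 to 3 both mural classes were thus highest in library 2, as were the macrophages. Library 4 held 44 pericyte-like and 12 smooth muscle-like cells, with higher levels of 1680.0 and 799. Ccl2 made up 87.1 to 89.4% of the ligand UMIs of pericyte-like cells in libraries 1 to 3, so the make-up held while the level varied.

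Low levels in other classes need the background set by free RNA in the droplets. Lymphocytes, which are not known as a source of these ligands, served for that. Cells under 1000 UMIs were left out, and each other cell was thinned to 1000 UMIs. A Ccl2 UMI was then found in 17.6% of endothelial-like cells of library 2, against 11.3% of its T/NK-like cells, the median depths before thinning being 3504 and 4318.5 UMIs. Cluster 5, with 2701 of the 5977 endothelial-like cells of library 2, had a median of 977 UMIs, so many of its cells were left out. Of these 164 T/NK-like cells, 158 were in a subcluster led by endothelial and granulocyte genes, so library 2 has no clear lymphocyte background. In libraries 1 and 3 the shares were 2.70 and 3.58% against 0.578 and 1.68%. These T/NK-like shares come from few cells, 175 and 121 before thinning. In library 4 the endothelial share of 11.2% lay between the T/NK-like (6.84%) and B-like (12.4%) shares, so by share it was not clear of background. By level, Ccl2 in these endothelial-like cells (121 CPM) was 2.36 times that of T/NK-like cells (51.3) and also above that of B-like cells. Unthinned, the endothelial shares were 7.81, 45.6, 14.4 and 51.2% in libraries 1 to 4. Granulocyte-like cells of library 2 had a thinned Ccl2 share of 13.8%, near the 11.3% of T/NK-like cells.

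**Figure D2:**
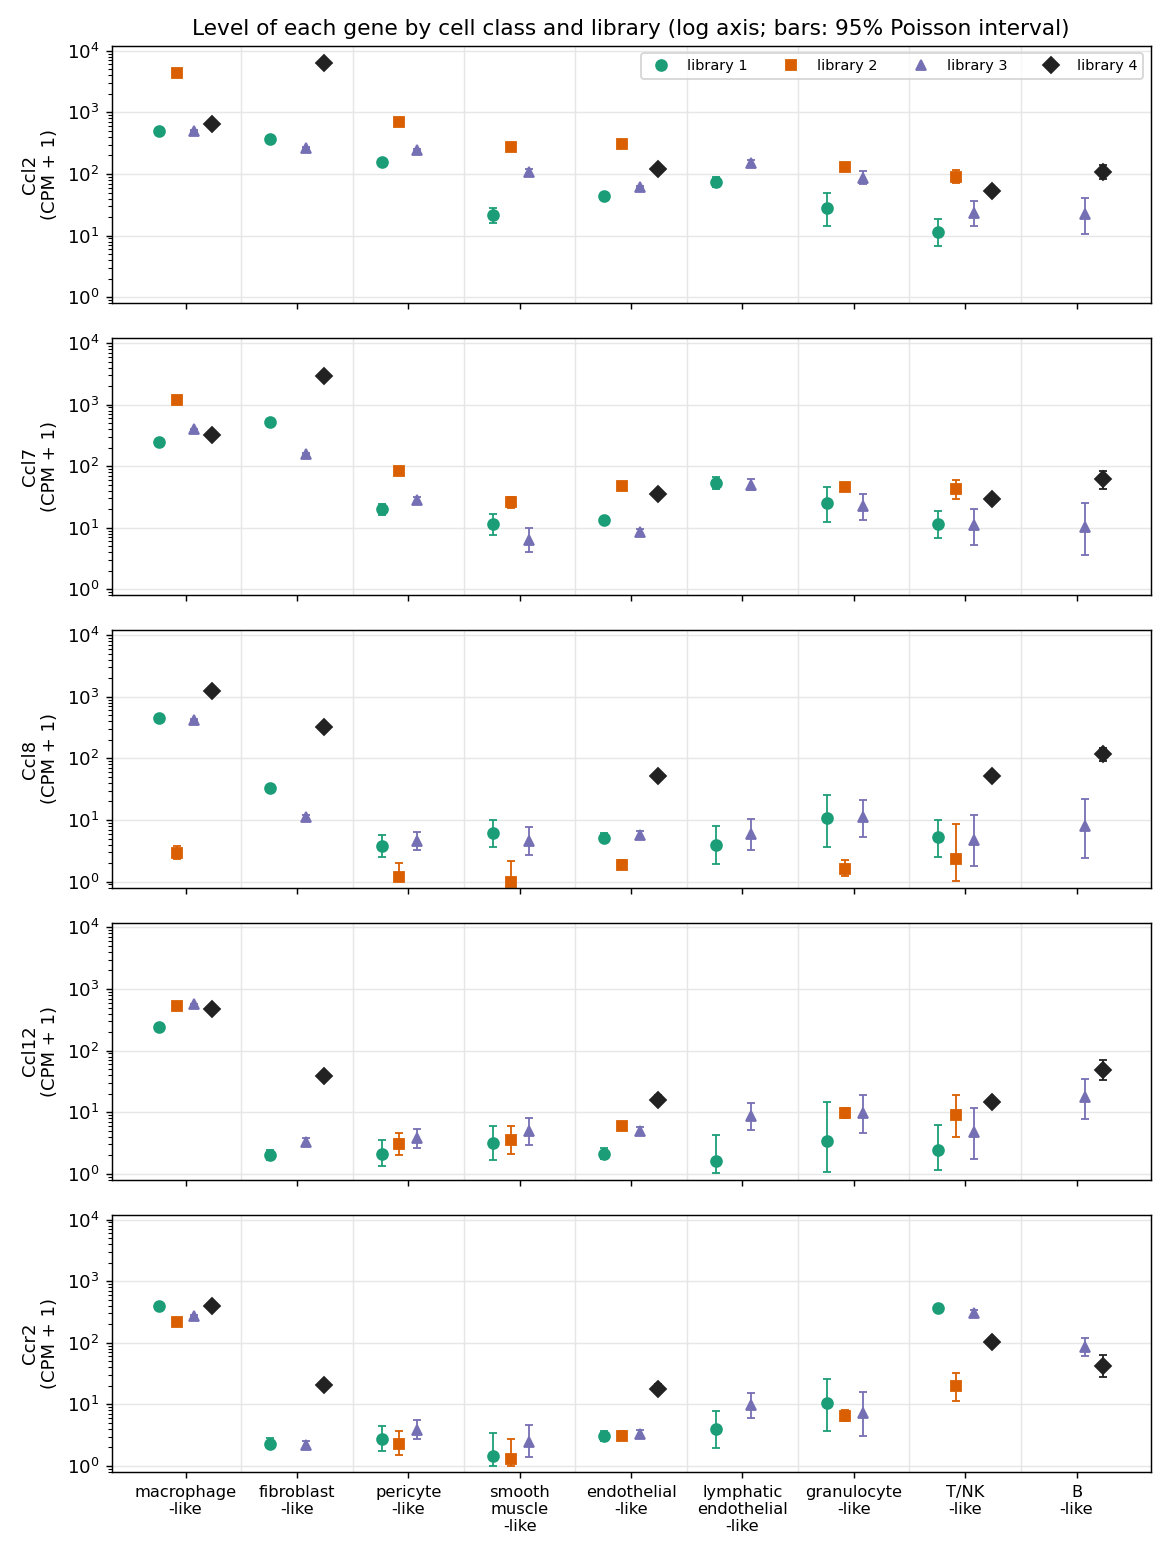
Level of each gene (CPM + 1, log axis) by cell class, with a point for each library that holds at least 50 cells of the class and bars for the 95% Poisson interval. Ccl8 of macrophage-like cells is at 1.93 in library 2 and between 417 and 1258 in the others, while Ccl12 stays between 239.8 and 561 in all 4.

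Ccl8, the member best known for Ccr8, was the most uneven of the ligands. In macrophage-like cells it stood at 444, 1.93, 417 and 1258 CPM in libraries 1, 2, 3 and 4. The value of library 2 rests on 29 UMIs in 1007 cells (interval 1.29 to 2.77), at a depth that gave 66557 UMIs of Ccl2 in the same cells. Ccl8 was thus all but missing from the macrophages in which Ccl2 and Ccl7 were highest. In library 2, 90.2% of its 1019 UMIs were in the stromal cluster 18, at a level of 45.1 CPM, and fibroblast-like cells of library 1 held 32.0. Fibroblast-like cells of library 3 were at 10.1 and those of library 4 at 319.

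The Ccl8 transcripts were concentrated in few cells. The top 10% of macrophage-like cells of library 4 by Ccl8 count held 95.4% of its Ccl8 UMIs, against 53.9% for Ccl2, 68.6% for Ccl12 and 30.2% for Ccr2, each ranked by its own gene. The highest cell held 1948 Ccl8 UMIs. In the pool, cluster 8, macrophage-like cells of which 2109 of 2132 were from library 4, held 79.9% of all Ccl8 UMIs in 5.03% of the cells, and Ccl8 itself was its leading gene beside the complement genes C1qa, C1qb and C1qc.

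Ccl12, a Ccr2 ligand of mice, varied least of the 4 ligands between the macrophage-like cells of the libraries. Its levels were 239.8, 538, 561 and 479.9 CPM in libraries 1 to 4, so the highest library was 2.34 times the lowest. In the same cells the highest library was 8.83 times the lowest for Ccl2, 4.88 times for Ccl7 and 651 times for Ccl8. Library 2, which almost lacked Ccl8, was therefore not short of Ccl12. Outside macrophages Ccl12 was rare: fibroblast-like cells had 1.03, 2.34 and 38.3 in libraries 1, 3 and 4, and B-like cells of library 4, the background class, had 48.1.

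Macrophage-like cells exceeded fibroblast-like cells in Ccl8 13.9-fold in library 1, 41.4-fold in library 3 and 3.94-fold in library 4. For Ccl12 the folds were 233, 239.8 and 12.5. Pooled, the log2 ratio was 3.72 (95% interval 3.68 to 3.75) for Ccl8 and 5.86 (5.75 to 5.97) for Ccl12. For Ccl12 the fibroblast level of library 4 lay between those of its T/NK-like (13.7) and B-like cells (48.1), and 401 of its 564 UMIs were in the 49 cells of subcluster 12, led by macrophage genes, while subcluster 7 was at 9.16. For Ccl8 the level was not near background, where 22.6% of thinned fibroblast-like cells (median depth 26633 UMIs) held a UMI against 8.65% of T/NK-like (11273) and 12.4% of B-like cells (4000.5). Unthinned, these shares were 76.7, 51.1 and 37.7%. Without library 4 the log2 ratio of Ccl12 was 8.10, and without library 3 it was 5.10, while that of Ccl8 was 2.9999 without library 3. Kept doublets (5.16) and means over cells (5.05) also moved Ccl12 by over 1.5-fold, as thinning (3.13) and means over cells (2.91) did Ccl8. At least 2-fold higher levels in macrophage-like cells were found for 3 of the 5 members (Ccl8, Ccl12 and Ccr2), against 19.0% of 7224 genes. None was 2-fold lower, against 26.4% of genes, though pooled Ccl7 was 1.83 times and Ccl2 1.32 times as high in fibroblast-like cells.

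**Figure D3:**
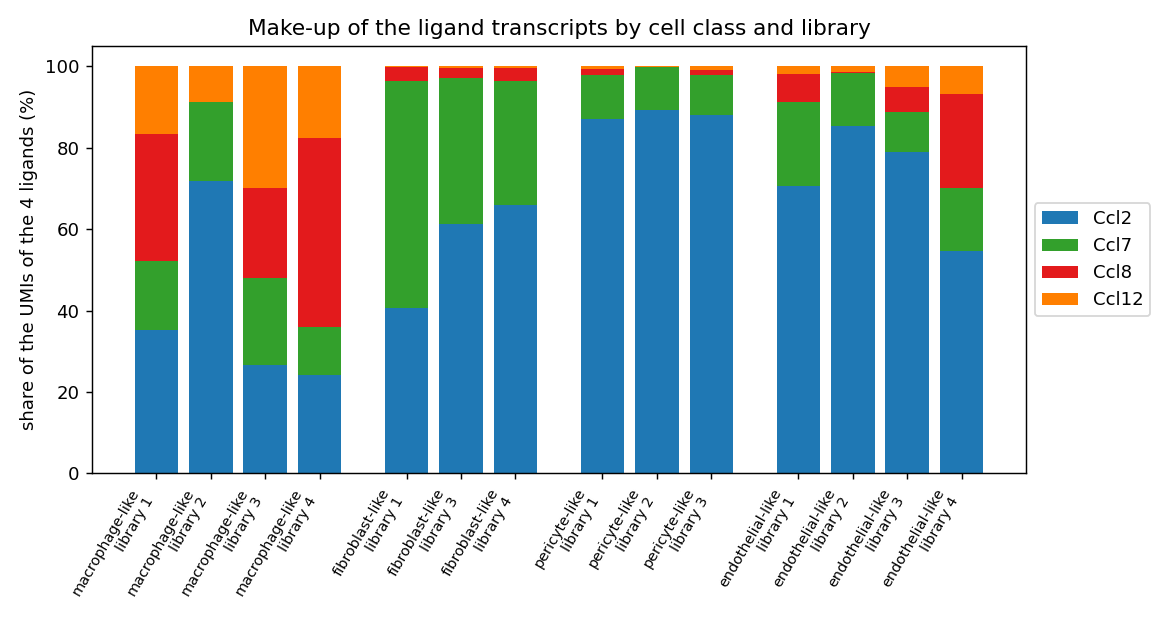
Make-up of the UMIs of the 4 ligands (%) in 4 cell classes, with a bar for each library holding at least 50 cells. Ccl8 makes up 46.4% of the ligand UMIs of macrophage-like cells in library 4 and 0.0313% in library 2, while Ccl2 makes up 87.1 to 89.4% in pericyte-like cells of libraries 1 to 3.

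The make-up of the ligands shows the same contrast. Each UMI counts 1 captured transcript, and how well each gene is captured was not measured. The shares are therefore compared between groups of cells and not read as a ranking of genes within a cell. In macrophage-like cells Ccl2 made up 35.1, 71.9, 26.7 and 24.1% of the ligand UMIs in libraries 1 to 4, and Ccl8 31.01, 0.0313, 22.2 and 46.4%. In fibroblast-like cells Ccl2 and Ccl7 together left Ccl8 3.47, 2.31 and 3.28% in libraries 1, 3 and 4, and Ccl12 at most 0.536%. The fibroblast shares of Ccl8 thus stayed within a narrow range although the total level of the ligands ran from 437 to 9744 CPM.

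Ccr2, the receptor, stood at 389.9, 213, 271 and 398 CPM in macrophage-like cells of libraries 1 to 4. Its highest library was 1.87 times its lowest, the narrowest range of the 5 members in these cells. Libraries 1 and 4 were closest, with intervals of 375 to 405 and 394 to 402 that overlap. Stromal levels lay at 1.31 and 1.18 in fibroblast-like cells of libraries 1 and 3, and the 19.5 of library 4 was close to the 17.03 of its endothelial-like cells. Cluster 2, macrophage-like cells of library 4 led by Ms4a4c, Ly6i and the monocyte marker Ly6c2, held 46.5% of all Ccr2 UMIs, and cluster 8 held 23.8%.

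Lymphoid cells were the other holders of Ccr2. In T/NK-like cells the level was 367, 19.0, 302 and 101 in libraries 1 to 4. Libraries 1 and 3 were high, and their T/NK-like cells had levels in the range of macrophage-like cells. The low value of library 2 is not one of clear lymphocytes, since 158 of its 164 cells were in T/NK subcluster 5, led by the endothelial genes Fabp4, Cd36 and Gpihbp1 and the granulocyte genes S100a8 and S100a9. Among T/NK subclusters the highest levels were in subcluster 9, 53 cells led by Cd163l1 and Trdc, genes of gamma-delta T cells, with 521, and in subcluster 7, led among others by the natural killer genes Ncr1 and Klrb1c, with 503. Subcluster 4, led by Klra and granzyme genes and wholly of library 4, had 326. Subcluster 3, led by Ifng, Ccl3 and Xcl1, had 23.3. In B-like cells of library 3 the level of 85.0 came from 1.89% of the 106 cells, with 35 of the 36 UMIs in a single cell.

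Among the larger myeloid subclusters of library 4, Ccl7 and Ccl8 ran in the opposite order to Ccr2, and Ccl2 and Ccl12 in part. Myeloid subcluster 4, named infiltrating monocyte/macrophage-like from fixed markers, Ly6c2 and Plac8 among them, had a Ccr2 level of 718 CPM in 977 cells. Subcluster 2 (1650 cells, led by Ly6i and Nos2) had 396, subcluster 1 (2631 cells, led by Gm15056, Ly6i and Cxcl9) 385, and subcluster 6 (428 cells, led by Ccl8, Ccl5 and Vcam1) 123. Subcluster 4 was thus highest and subcluster 6 lowest, while subclusters 2 and 1 had overlapping intervals, 387 to 404 and 379 to 390.4. Ccl8 stood at 54.9, 80.9, 595 and 7463 in the same order. Ccl12 stood at 123, 101, 680 and 848. Ccl7 stood at 73.0, 90.8, 271 and 1200.4. Ccl2 was flatter, at 534, 437, 681 and 1152. From subcluster 4 to subcluster 2, Ccl2 and Ccl12 went down together with Ccr2. Dendritic-like cells (subcluster 8, 134 cells of library 4) did not follow the order, with Ccr2 at 256 and the ligands at 67.4 to 129. Proliferating cells (subcluster 11, 52 cells led by Pclaf and Birc5) were close to subcluster 6, with Ccr2 at 166 and Ccl8 at 3740.

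**Figure D4:**
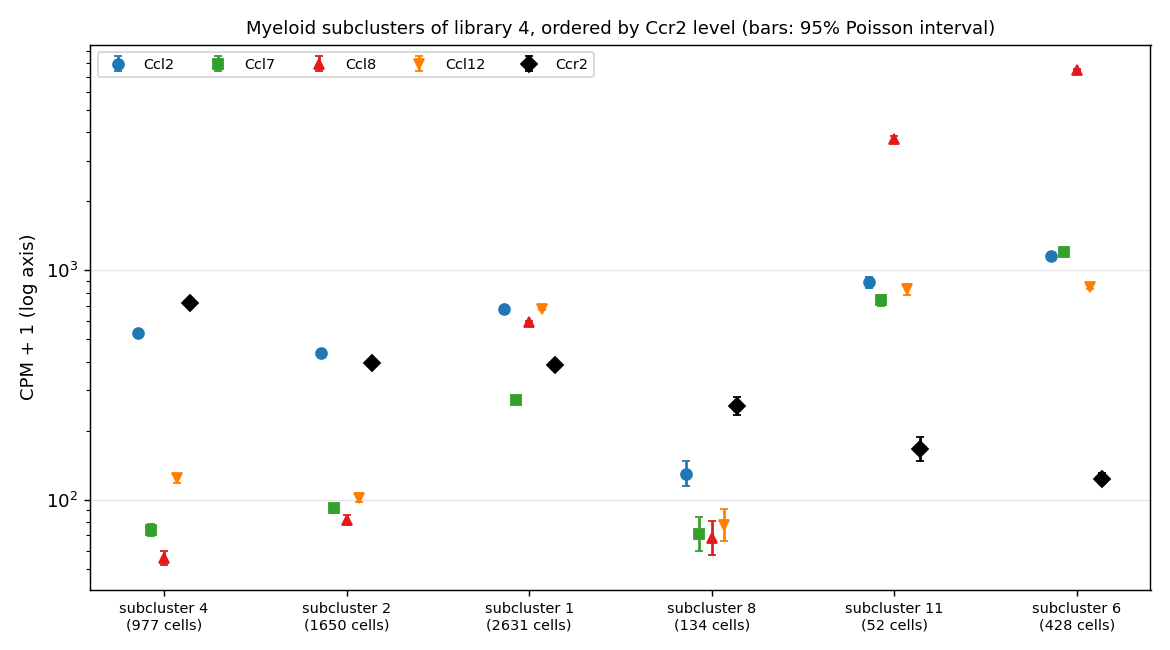
Level of each gene (CPM + 1, log axis) in the myeloid subclusters of library 4 with at least 50 cells, ordered by Ccr2, with bars for the 95% Poisson interval. From subcluster 4 to subcluster 6, Ccr2 goes from 718 to 123 while Ccl8 goes from 54.9 to 7463.

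Set against subcluster 4, subcluster 6 had 136 times the Ccl8 (95% interval 126 to 146), 16.4 times the Ccl7, 6.90 times the Ccl12 and 2.16 times the Ccl2, and subcluster 4 had 5.86 times the Ccr2 (5.53 to 6.21). All 4 ligands were at least 2-fold higher in subcluster 6, against 6.69% of 5634 genes, and Ccr2 was 2-fold lower, against 4.65%. The subclusters were drawn from the same cells, although the 5 members were kept out of the genes used to cluster, so these are descriptions and not tests. The pair was also picked as the ends of the Ccr2 order, and Ccl8 leads subcluster 6, so the Ccr2 and Ccl8 differences came with the choice. Ccl8 in subclusters 4 and 2 lay between the levels of T/NK-like (49.9) and B-like cells (115) of library 4, the background classes. Ccl7 in subcluster 4 (73.0) was above the 28.2 of T/NK-like cells. It was not far above B-like cells, where Ccl7 made up 18.2% of a level of 330 CPM for the 4 ligands together. The Ccl7 fold is thus also taken against a level not far from background. The monocyte genes ran with Ccr2: Ly6c2 fell from 3250 in subcluster 4 over 1424 and 850 to 224 in subcluster 6, and Plac8 from 8147 to 855. The median depth was 13819 UMIs in subcluster 4 and 25079 in subcluster 6, and its part in the contrast was not tested beyond the use of CPM.

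Ccr2 and Ccl8 were then set side by side in single cells. Cells under 5000 UMIs were left out (139, 174, 135 and 767 macrophage-like cells of libraries 1 to 4), and each other cell was thinned to 5000 UMIs. In macrophage-like cells, Ccr2 was then found in 21.1% of the 71 Ccl8-positive cells of library 1 and in 57.8% of its Ccl8-negative cells. In library 3 the shares were 16.5% (230 positive cells) and 53.1%. In library 4 they were closer, 66.0% (1693 positive cells) and 75.7%. These gaps were not tested. For Ccl12-positive against Ccl12-negative cells, the Ccr2 shares were 31.6 and 59.4% in library 1, 38.9 and 45.7% in library 2, 38.3 and 51.6% in library 3, and 69.8 and 74.6% in library 4. For Ccl2 they were 42.7 and 57.7% in library 1, but 43.0 and 44.7%, 42.1 and 47.7%, and 71.8 and 73.8% in libraries 2 to 4. Ccl2 and Ccl7 went together: Ccl7 was found in 40.4, 61.3, 54.1 and 39.1% of Ccl2-positive macrophage-like cells of libraries 1 to 4, against 11.3, 24.6, 15.5 and 15.4% of Ccl2-negative ones. In fibroblast-like cells of libraries 1 and 3 these shares were 60.7 and 38.6% against 24.6 and 9.20%. For Ccl8 the gap in macrophage-like cells was smaller. It was found in 24.6, 24.9 and 36.6% of Ccl2-positive cells of libraries 1, 3 and 4, against 12.1, 19.8 and 26.7% of Ccl2-negative ones. Positive means at least 1 UMI, and the free RNA of each library enters these shares.

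The infiltrating-named and the resident-named subclusters were compared for Ccr2, which is known to mark monocyte-derived cells. Subcluster 7, resident macrophage-like from Folr2, Mrc1, Cbr2, F13a1 and Lyve1, had a Ccr2 level of 36.9 (interval 29.7 to 45.4) in 265 cells, against 718 in subcluster 4. The log2 ratio was 4.28 (3.98 to 4.60), which is 19.4-fold, but its size depended on the processing. It was 1.07 with 20 principal components, 1.08 with doublets kept, 1.29 with at least 500 genes per cell, 1.67 at resolution 0.4, 3.48 after thinning and 1.71 without library 2, which left 8 resident-named cells. The cells that took the names also changed. With 20 principal components, doublets kept, at least 500 genes and resolution 0.4, the resident-named cells numbered 1416, 1480, 1552 and 1514. Their Ccr2 levels were 236, 239, 237 and 234 CPM. The infiltrating-named cells numbered 3035, 3652, 1482 and 693. The 19.4-fold thus holds for the small resident-named group of the reported setting. All 977 cells of subcluster 4 were from library 4 and 257 of the 265 of subcluster 7 from library 2, so cell state and library cannot be told apart here. Within library 2, 466 macrophage-like cells with at least 2 infiltrating and at most 1 resident marker had a Ccr2 level of 258, and the 182 cells of the mirror gate had 41.1, a 6.29-fold difference. The fold between subclusters was 3.09 times this one. Between subclusters 4 and 7, 2 of 5 members were at least 2-fold higher (Ccl8 and Ccr2), against 13.1% of 6154 genes, though the Ccl8 of subcluster 4 (54.9) lay at the background of library 4. Conversely, 3 were 2-fold lower (Ccl2, Ccl7 and Ccl12), against 17.0%. Within library 2 the ligands split: the resident gate had 2.37 times the Ccl7 and 1.54 times the Ccl12, and the infiltrating gate 1.47 times the Ccl2. No Ccl8 UMI was found in the infiltrating gate, against 16 UMIs (6.92 CPM) in the resident gate. The resident level was 16.7 times a floor of 3 counts over the infiltrating gate, a ratio that is not a lower bound. For the log2 ratio of the infiltrating to the resident gate, the exact interval had its upper end at -3.59.

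The other myeloid groups combined the receptor and the ligands in different ways. Nonclassical monocyte-like cells (subcluster 10, 114 cells with Ace, Ear2, Adgre4, Treml4 and Eno3) had the highest Ccr2 of all myeloid subclusters, 915, with Ccl2 at 53.2 and Ccl8 at 5.82. The 71 of them in library 1 had 802. They also held Plac8 at 3382 and Chil3 at 709.6. Dendritic-like cells (subcluster 8, 218 cells) had Ccr2 at 336 and Ccl2 at 115. Subcluster 3, led by Gdf15, Fcrls and Ms4a7, with Mrc1 and Cx3cr1 but too few markers for a name, was the main macrophage group of libraries 1 and 3. Pooled over its cells it held all 5 members, with Ccl2 at 630 and 498, Ccl8 at 638 and 486, Ccl12 at 332 and 593 and Ccr2 at 292 and 246 in libraries 1 and 3. Such pooled levels do not say whether the genes were in the same cells. Subcluster 5 of library 2, led by Cxcl3, Lcn2 and S100a8, had Ccl2 at 4816, Ccr2 at 246 and Ccl8 at 1.06. Granulocyte markers took 0.539% of the UMIs of macrophage-like cells in library 2 against 0.0133 to 0.0293% in the others, and their part in these levels was not tested.

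Levels over the 29 groups of class and library with at least 100 cells were used to find the genes most like each member, among 10890 genes. Ccl2 and Ccl7 were each other's closest gene (Pearson r = 0.89). Next to Ccl7 came Mmp19, Clcn5, Vcan and Dse (0.84 to 0.86), and next to Ccl2 came Car13, Dram1, Ptges and Mmp19 (0.79 to 0.83). Ccl8 lay closest to Slamf8 (0.91), followed by Aif1, Lair1, H2-DMb1 and Fam26f. Ccl12 lay closest to Fcgr1, an Fc receptor of macrophages (0.98), followed by Clec4a1, Ms4a6d, Ms4a6c and Clec4a3. Among the genes closest to Ccr2 were Lat2 (0.96), Cd48, Ly9 and Myo1g. Ccl8 was nearer to Ccl12 (0.74) than to Ccl2 (0.43). Groups of a library share its depth and free RNA, so these values are descriptions.

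Other chemokines and receptors of the family were read for each class, in each library that held at least 100 of its cells. The 97 granulocyte-like cells of library 1 and the 7 of library 4 fell under this limit and were not ranked. Nor were the 770 cells of cluster 19 in library 4, which carried 5 granulocyte markers but stayed unnamed. A highest class of library 4 is therefore one among classes without its granulocytes. Ccr8, the known receptor of mouse Ccl8, reached at most 2.48 CPM, in T/NK-like cells of library 3, and Ccr3 at most 6.26, in granulocyte-like cells of library 3. Ccr1 was highest in granulocyte-like cells of libraries 2 and 3 (805 and 741) and in macrophage-like cells of libraries 1 and 4 (85.0 and 318). Of the atypical receptors, which bind chemokines without signalling for migration, Ackr2 was highest in lymphatic endothelial-like cells, with 78.6 and 75.8 in libraries 1 and 3 against 0.762 and 6.47 in endothelial-like cells. Ackr1 was also highest there, at 11.8 and 33.8. Ccl11, the eosinophil attractant whose gene lies between Ccl7 and Ccl12, was a stromal transcript, highest in fibroblast-like cells of libraries 1 and 4 (111 and 202) and in pericyte-like cells of libraries 2 and 3 (197 and 32.4). The inflammatory chemokines lay in leukocytes. Ccl3 and Ccl4 were highest in granulocyte-like cells of library 2 (3291 and 3540.3). Among the classes ranked in library 4 they were highest in T/NK-like cells (850.2 and 1799). Ccl5 was highest in T/NK-like cells of libraries 1 and 3 (6609 and 3606), and in library 4 macrophage-like cells (2384) exceeded T/NK-like cells (1507). Ccl6 and Ccl9 were highest in macrophage-like cells of library 2 (6058 and 2863), above the 3460.0 and 194 of its granulocyte-like cells. Ccl1 was highest in T/NK-like cells of libraries 1, 3 and 4 (5.63, 88.1 and 21.4). The value of library 1 rests on 8 UMIs, and that of library 3 on 71 UMIs in 1.65% of 121 cells.

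Cytokines and regulators known to act on the ligand genes were set beside them. Classes were again ranked only in libraries with at least 100 of their cells, which left out the granulocyte-like cells of libraries 1 and 4. The unnamed cluster 19 of library 4, with granulocyte markers, was not ranked either. Ifng was highest in T/NK-like cells of libraries 1, 3 and 4, at 175, 158 and 1333. Il1b stood at 5266 in macrophage-like and 5246 in granulocyte-like cells of library 2, and at 3414 in macrophage-like cells of library 4. Tnf was highest in granulocyte-like cells of libraries 2 and 3 (1362 and 2504) and in macrophage-like cells of libraries 1 and 4 (201 and 186). The stromal cluster 18 of library 2, a main source of Ccl2 and Ccl7, held Il6 at 424, Csf1 at 385, Csf2 at 167 and Nfkb1 at 408. Il6 was highest among the named classes in fibroblast-like cells of libraries 1 and 4 (262 and 235) and in pericyte-like cells of libraries 2 and 3 (406 and 388). Irf1, which interferons induce, stood at 26.4 in myeloid subcluster 5, a group of library 2 with little Ccl8, at 389 in subcluster 6 and at 517 in subcluster 4. Across classes Irf1 was highest in pericyte-like cells of libraries 1 to 3, at 1424, 239.6 and 682. Zfp36, which promotes decay of cytokine transcripts, was highest there in libraries 1 and 2 (2395 and 942), and Rela in libraries 1 to 3 (147, 116 and 111). Nfkbia, induced by NF-kB, was highest in granulocyte-like cells of libraries 2 and 3 (4192 and 6134). Among the adhesion genes, Spn was highest in T/NK-like cells of all 4 libraries, between 61.0 and 144. Itgam stood at 930.3 in macrophage-like and 889 in granulocyte-like cells of library 2, and Itgb2 at 611 in macrophage-like cells of library 4. Selplg was highest in T/NK-like cells of libraries 1, 3 and 4 (658, 624 and 436) and in granulocyte-like cells of library 2 (674). Cx3cr1 was highest in macrophage-like cells of libraries 1 and 3 (211 and 398) and stood at 5.71 in those of library 4.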

How the data were processed

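The authors prepared 3′ libraries with the 10x Chromium v3 kit from whole digested grafts, and aligned and counted reads with Cell Ranger 3.0.0 on mm10 with Ensembl annotation. The deposited values are UMI counts, not normalised, in 1 matrix of 53824 barcodes and 30905 genes. Barcode suffixes mark 4 libraries that nothing used here ties to the 2 allogeneic and 2 syngeneic grafts, so they were pooled as 1 sample and shown singly, and p-values were not computed. The study states fewer cells.

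Following the study's methods, barcodes with more than 200 genes and under 20% mitochondrial UMIs were kept (44626), mitochondrial genes were dropped, and the 5% of each library closest to simulated doublets was removed, leaving 42395. Counts were scaled to 10000 per cell and logged. 2000 variable genes without the 5 members, 10 principal components and 30 neighbours fed Leiden clustering (leidenalg 0.10.2, resolution 0.8). Macrophage-like, fibroblast-like, endothelial-like and T/NK-like cells were subclustered at 0.5. A cluster was named "-like" when at least 3 fixed markers were in 10% of its cells and 2-fold above the rest (10 CPM added). It stayed unnamed with fewer, when another class led, or when its cells were shallow for their own library and no marker of the class was among its 10 leading genes. Levels are pooled UMIs per 1000000 (CPM) with exact Poisson intervals. Shares have exact binomial intervals, and ratios of levels conditional exact binomial intervals, all at 95% and for counting error only. Depth was 96020294 to 166079145 UMIs per library. The steps were tested on simulated data.

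Named genes were the 5 members, the fixed pathway lists, the 5 genes most correlated with each member over groups of at least 100 cells (log2 of CPM plus 10, genes reaching 20), and genes leading clusters that held over 10% of a member's UMIs. Other leading genes and subclusters were named after their values were seen. Members and lists were chosen with earlier results of these data known. Promoters came from the RefSeq table and coordinates from GENCODE M21. Alternatives were other resolutions, 20 components, doublets kept, at least 500 genes per cell, thinning to 1000 UMIs, means over cells and leaving out each library. Thinning left out shallower cells. Some genes of these lists are not reported here.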

Additional observations from a re-analysis of the deposited data

How the results depend on the processing

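Every ratio kept its direction under each alternative, while most moved by more than counting error. Log2 ratios are given in the order Ccl2 and Ccl7 (fibroblast-like against endothelial-like), Ccl8 and Ccl12 (macrophage-like against fibroblast-like) and Ccr2 (infiltrating-named against resident-named), and a ratio not listed under a setting stayed within its interval. As reported they were 3.27, 5.01, 3.72, 5.86 and 4.28. Resolution 0.4 gave Ccl2 2.67, Ccl7 3.81 and Ccr2 1.67. Resolution 1.6 gave Ccl2 3.64, Ccl7 5.67, Ccl8 3.77 and Ccr2 3.84. With 20 principal components, Ccl2 was 2.73, Ccl7 3.78, Ccl8 3.79 and Ccr2 1.07. With doublets kept, the 5 ratios were 3.53, 5.38, 3.58, 5.16 and 1.08. With at least 500 genes per cell they were 2.53, 3.60, 3.61, 5.72 and 1.29, with cells thinned to 1000 UMIs 2.63, 4.20, 3.13, 5.66 and 3.48, and as means over cells 2.06, 3.21, 2.91, 5.05 and 3.80. For Ccr2 the resident-named cells numbered 265 as reported. They numbered between 1416 and 1552 at resolution 0.4, with 20 principal components, with doublets kept and with at least 500 genes. Other causes of these shifts were not tested. Leaving out each library in turn gave ranges of 1.08 to 4.52, 3.71 to 5.97, 2.9999 to 3.89, 5.10 to 8.10 and 1.71 to 4.61. Without library 4 no infiltrating-named cells were left for Ccr2. 3 alternatives were chosen after seeing the data. Counting cluster 18 as fibroblast-like gave 3.58, 5.34, 3.83 and 6.11 for the ligands, marker gates within library 2 gave 2.65 for Ccr2, and dropping barcodes shared between libraries left all 5 ratios within their intervals. No paired analysis was possible because the libraries carry no replicate number or graft and no result comes from a test. Depth limits shares near the free RNA of a library, and library 2 held too few fibroblast-like cells for a level.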
